A study of Mus musculus with 12 samples.

Results

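The comparison described here set 3 libraries of mouse striatum taken after transient middle cerebral artery occlusion with SN-011 against 3 libraries of sham-operated striatum. These are the libraries whose titles begin with 3d-SN011 and with sham, 6 of the 12 libraries of the series. Occlusion imitates an ischaemic stroke: flow in the artery that feeds the striatum is stopped and later restored. SN-011 is an antagonist of STING, an adaptor of innate immunity, and the series as a whole was designed around its use after occlusion. The occlusion arm is labelled tMCAO+SN-011 and the sham arm sham+PBS, so the sham mice received phosphate-buffered saline and no drug. All mice were C57BL/6J, with no age or sex in the labels. The labels do not say what 3d means, and neither the sham nor the vehicle libraries carry it. The operation, the drug and whatever 3d stands for therefore cannot be told apart in this comparison. Whether the 3 libraries of a group are 3 animals is not stated either. The p-values therefore reflect only the spread between libraries within groups, estimated jointly over all 12, which may be technical.

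The striatum consists mostly of GABA-releasing projection neurons, which carry either the D1 or the D2 dopamine receptor and lie in the territory of the middle cerebral artery. When blood flow stops these neurons die within the infarct, microglia and phagocytes from the blood take up the debris, astrocytes around the lesion enlarge and make intermediate filaments, and fibroblast-like cells lay down matrix. DNA that reaches the cytosol of damaged or phagocytic cells is sensed by the enzyme cGAS, whose product activates STING. STING in turn recruits the kinase TBK1 and the transcription factor IRF3, which switch on type I interferon, and interferon acts through a complex that holds STAT2 and IRF9 on a broad set of target genes.

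Each of the 6 libraries held between 17228664 and 18622053 counted reads, and 18537 genes had enough counts to be tested. Expression is given as CPM, the counts scaled by TMM to a common library size, always in the order of replicates 1 to 3 of a group. Fold changes are log2 values of 3d SN-011 over sham with their standard error (SE), and adjusted p-values are Benjamini-Hochberg values over all genes tested by edgeR's quasi-likelihood test. A gene was called at an adjusted p under 0.05. By this test 5516 genes were higher and 5168 lower in the 3d SN-011 libraries, which is 29.8% and 27.9% of all genes tested and 57.6% in either direction. For 63.3% of genes the 2 groups did not overlap. The median log2 fold change over all genes was 0.010, that of the genes called higher 1.33 and that of the genes called lower -1.06. The gene lists described below held 816 entries, of which 815 matched a gene and 782 were tested. A gene scarce in sham can be tested through the libraries where it is higher, so a call of higher in such genes is partly set by this. The changes were lopsided at the extremes: 321 genes were called higher by more than 4 on the log2 scale and 33 were called lower by more than 4. With so many genes called, the count of a gene list is read throughout against these shares, and a list near 29.8% higher and 27.9% lower stands where genes in general stood.

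**Figure D1:**
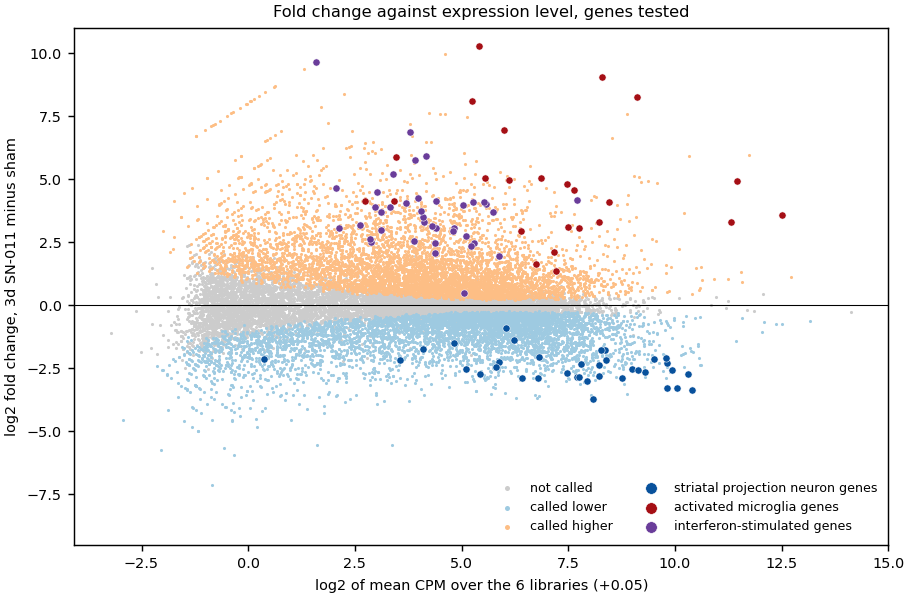
Log2 fold change of 3d SN-011 over sham (vertical axis) against the log2 of the mean CPM over the 6 libraries (horizontal axis), 1 point per gene tested, coloured by call. Striatal projection neuron genes (dark blue) all lie below 0, and activated microglia genes (dark red) and interferon-stimulated genes (purple) all lie above it.

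The composition of the libraries changed with the group. Genes called higher supplied 39.4% to 43.8% of all counts in the 3d SN-011 libraries and 14.5% to 14.9% in sham, and genes called lower supplied 26.9% to 32.1% against 58.6% to 59.1%. In bulk tissue fewer cells of a type and less RNA per cell cannot be told apart, and this holds for every list below. CPM is also relative to the other RNA of a library. With a shift this large, a modest rise in CPM need not be a rise in the amount of that RNA. The 3d SN-011 libraries also differed more from each other: the median SD of log2 CPM was 0.317 among them and 0.126 among the sham libraries, and 80.2% of genes had the larger SD in the 3d arm. The first principal component of the 6 libraries held 78.8% of the variance and separated the groups, with 3d SN-011 replicate 1 farthest from sham. The second held 10.1% and set 3d SN-011 replicate 3 apart from replicates 1 and 2. Differences among the 3 libraries of the arm are therefore given beside the differences between the groups.

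The sham libraries carried the genes that define the striatum. Ppp1r1b, the dopamine-regulated phosphatase inhibitor of projection neurons and a gene chosen after its values were seen, stood at 1571, 1363 and 1378 CPM in sham. Genes of neighbouring tissue varied among the sham libraries. Ttr, the transport protein made by choroid plexus, stood at 2285, 1110.0 and 73.8 CPM in sham and 95.1, 700.3 and 13.7 in 3d SN-011, and Slc17a7, the glutamate transporter of cortical neurons, at 58.5, 298 and 192 and 188, 33.5 and 118. Both groups overlapped for these 2 genes and neither was called (adjusted p = 0.138 and 0.521). Without 3d SN-011 replicate 2, Ttr was called lower (log2 fold change -4.41, adjusted p = 0.0102), and without sham replicate 1 its fold change was -1.14, not called. Among 11 genes of cortical neurons 1 was called higher and 2 lower (5 lower with no filter on low counts). Of 9 thalamus genes 2 rose and 2 fell (3 fell without 3d SN-011 replicate 2 or 3 and with a replicate block in the fit). In the main fit these shares lay below those of all genes. The share called lower lay above that of all genes for cortical genes without the filter and for thalamus genes where 3 fell.

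All 36 striatal projection neuron genes tested fell, with a median log2 fold change of -2.51. Drd1, the receptor of the direct pathway, stood at 9.52, 55.8 and 75.9 CPM in the 3d SN-011 libraries against 315, 293 and 309 in sham (log2 fold change -2.70, SE 0.51, adjusted p = 0.000595). Drd2, the receptor of the indirect pathway, stood at 16.2, 66.1 and 69.5 CPM against 391, 352 and 346 (log2 fold change -2.84, SE 0.42, adjusted p = 9.92e-05). The groups were far from overlapping for both receptors, and replicate 1 was the lowest library each time. Adcy5, the adenylyl cyclase that the dopamine receptors act on, fell from 2398, 2121 and 2126 to 142, 384 and 469.8 CPM (log2 fold change -2.74). Pde10a, the phosphodiesterase that removes the cyclic nucleotides made by that enzyme, fell from 2490.0, 2498 and 2369 to 68.7, 312 and 339.5 CPM (-3.35). Transcription factors that give these neurons their identity fell as well: Bcl11b by 2.80 and Ebf1 by 1.73 on the log2 scale. Penk, the enkephalin precursor of indirect pathway neurons, had the widest spread of the list at 46.2, 254 and 512 CPM against 1284, 1076 and 1210.0, with a fold change of -2.14 that was -2.99 without replicate 3. Over the list, the medians of the 3 libraries against the sham mean were -3.94, -2.30 and -1.93, on the scale of log2 CPM with a prior count of 2, which draws in the changes of scarce genes.

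The cannabinoid receptor Cnr1, which projection neurons carry on their axons, was among the 10 largest falls of all genes named, at 18.6, 57.8 and 36.1 CPM against 468, 517 and 512 (log2 fold change -3.73, SE 0.41). It lies on chromosome 4, 33924593 to 33948831 of GRCm38. Others of those 10 were scarcer. The orphan receptor Gpr139 stood at 0.154, 1.09 and 0 CPM against 19.2, 22.9 and 17.9, and the glutathione peroxidase Gpx6 at 0.102, 0.247 and 0 against 5.76, 6.12 and 5.87. Their fold changes of -5.54 and -5.55 were -7.86 and -6.63 without 3d SN-011 replicate 2, the library that held most of their few counts. Ankk1, a kinase gene beside Drd2, fell by 3.81 (SE 0.36), Klhl1, a kelch-like protein of the neuronal cytoskeleton, by 3.92 (SE 0.38) and Hs6st3, which sulphates heparan chains, by 3.80 (SE 0.35), all on the log2 scale.

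Interneuron genes fell less uniformly. Of 15 tested, 9 fell and 0 rose, with a median of -1.10. Nos1, the nitric oxide synthase of somatostatin interneurons, stood at 19.8, 35 and 29.4 CPM against 107, 93.8 and 83.3 (log2 fold change -1.75, adjusted p = 1.52e-05). Sst itself, the peptide of the same cells, stood at 45.5, 104 and 101 CPM against 95.7, 105 and 103 and was not called (-0.28, adjusted p = 0.357): replicates 2 and 3 lay within or beside the sham range and only replicate 1 was below it. Npy, a peptide of the same cells that was chosen after its values were seen, was not called either (-0.27, adjusted p = 0.365). Kit, a receptor kinase found on interneurons, fell from 60.0, 58.1 and 61.9 to 11.4, 25.7 and 23.9 CPM. Whether interneuron genes as a list fell less than projection neuron genes was not tested.

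Genes of the neuronal synapse and of excitability fell together. Of 19 synaptic vesicle and release genes 18 fell (median -1.88) and of 22 postsynaptic genes 22 (median -2.15). Of 20 voltage-gated channel genes 19 fell (median -2.24) and of 15 neuronal cytoskeleton genes 14 (median -1.53). In the main fit none of these lists had a member called higher. Unc13a, which primes vesicles for release, stood at 86.7, 106 and 103 CPM against 613, 626 and 541 (log2 fold change -2.59, SE 0.19, adjusted p = 8.06e-06). Homer1, a scaffold that ties metabotropic glutamate receptors to the postsynaptic density, stood at 39.2, 67.1 and 47.2 CPM against 400.3, 438 and 415 (-3.03, SE 0.25, adjusted p = 9.97e-06). In both genes the 3 libraries of the arm lay close together, unlike the dopamine receptors. The GABA receptor subunit Gabrb2 fell by 2.88, the sodium channel Scn8a by 2.27 and the potassium channel Kcnc1 by 1.75 on the log2 scale. In the cytoskeleton list Nefl, the light neurofilament, fell from 168, 204 and 214 to 32.4, 35.1 and 36.4 CPM, and Ank3, which anchors channels at the axon's initial segment, fell from 782, 796 and 790.4 to 156, 208 and 185. Tubb4a, a tubulin that oligodendrocytes also make, stood at 754, 844 and 755 CPM against 574, 642 and 669 and was not called (adjusted p = 0.078). With DESeq2, where 14 of this list fell and 1 rose, Tubb4a was called higher.

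Immediate early genes are switched on by neurons with activity. Of 18 tested 9 fell, 2 rose and the others did not pass the test (median -1.08). Egr4 had the smallest adjusted p of all genes tested, at 7.63, 13 and 13 CPM against 77.8, 72 and 103 (log2 fold change -2.91, SE 0.20, adjusted p = 7.13e-06). Npas4, which needs calcium entry through synapses, stood at 4.09, 9.64 and 7.06 CPM against 67, 65.4 and 88 (-3.40, SE 0.30), and Egr1 and Egr3 fell by 2.54 and 3.01. The members that rose were Ier2 and Btg2, at 16.4, 8.25 and 18.8 and 26, 17.7 and 25 CPM against 3.28, 4.97 and 5.75 and 9.65, 9.94 and 19.8 (1.63 and 0.80, named after their values were seen). Btg2 was not called without 3d SN-011 replicate 1 or 3 or without sham replicate 1 or 2 (adjusted p = 0.102, 0.0798, 0.144 and 0.143). Fos, chosen after its values were seen, was not called (0.66, adjusted p = 0.202). Without sham replicate 3 Fos was called higher (1.36, adjusted p = 0.0118). Sham replicate 3 had the highest value of several of these genes, for example 12.4, 17.3 and 42.7 CPM of Fos across the sham libraries. Nr4a2 showed the widest spread, at 25.7, 3.91 and 3.61 CPM against 6.92, 25 and 36.7, and was called lower only without 3d SN-011 replicate 1 (-2.60, adjusted p = 0.044).

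Genes linked to injury of neurons and to regrowth went both ways, with 7 of 13 higher and 3 lower. Atf3, a transcription factor of damaged neurons, rose from 0.667, 0.546 and 1.15 to 34.5, 15.8 and 22.2 CPM (log2 fold change 4.93, SE 0.58). Cebpb, a factor shared by injured neurons and myeloid cells, rose from 4.67, 3.58 and 3.39 to 33, 16.5 and 48.6 CPM. Gap43, a growth cone protein, fell by 0.90 on the log2 scale, as did Flrt3 and Ecel1 by 1.94 and 1.28 (named after their values were seen), while Tubb2b, a tubulin of immature neurons, rose by 1.20. In the subventricular neuroblast list 6 of 12 rose and 3 fell. Cd24a, a surface protein of neuroblasts and also of ependymal and immune cells, stood at 80.9, 48.6 and 79.3 CPM against 14.8, 20.3 and 17.7. Dcx, the microtubule protein that defines neuroblasts, did not pass the test at 62.2, 31.2 and 35.2 CPM against 34.4, 46.6 and 45.2 (adjusted p = 0.941). Dlx5 and Dlx6, homeobox genes of the same lineage and of mature striatal neurons, fell by 1.21 and 2.11 (the latter -2.80 as a log2 fold change without 3d SN-011 replicate 3).

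**Figure D2:**
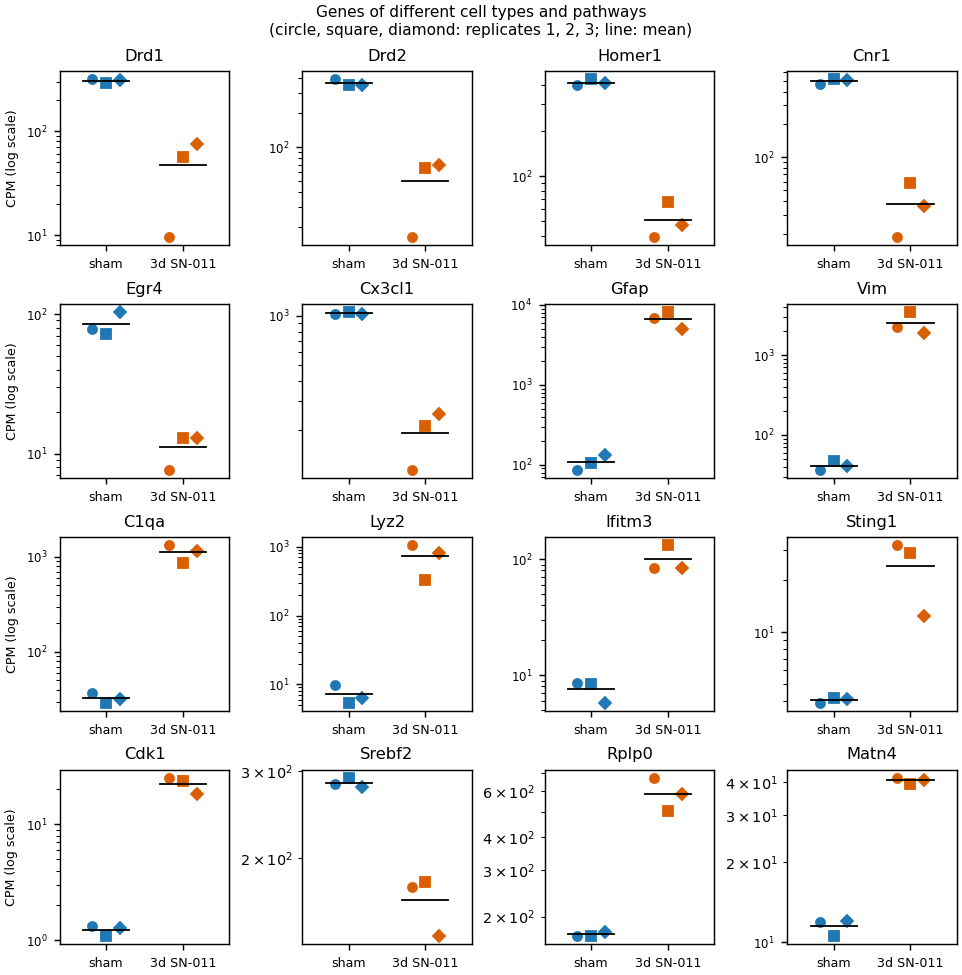
CPM (log axis) of 16 genes of neurons, glia, immune signalling, cell division, lipid synthesis and ribosomes in the 3 sham libraries (blue) and the 3 libraries of the 3d SN-011 arm (orange), with the group mean as a line. The groups do not overlap for any of the 16. Several of these were named for a small adjusted p or for no overlap, and 63.3% of all genes did not overlap. Drd1 and Drd2 also show how low 3d SN-011 replicate 1 (circle) lay among its group.

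Microglia genes rose in both of their forms. Of 15 genes of resting microglia 14 rose, with a median log2 fold change of 2.64, and all 24 genes of activated microglia rose, with a median of 4.36. Tmem119, a surface protein of resting microglia, stood at 172, 119 and 108 CPM against 25.6, 20.2 and 20.1 (log2 fold change 2.60, SE 0.25, adjusted p = 1.10e-05). Csf1r, the receptor on which microglia depend for survival, stood at 1084, 1011 and 683 CPM against 144, 129 and 128 (2.79, SE 0.34). Replicate 3 was the lowest of the 3 for both genes and still lay well above sham. P2ry12, the nucleotide receptor that guides microglial processes, was chosen after its values were seen. Its levels were 156, 194 and 54.4 CPM against 45.4, 42.8 and 40.5, so that replicate 3 came close to sham. Slc2a5, the fructose transporter of microglia, lay below the sham range in replicate 3 (15.4, 17.2 and 2.37 CPM against 5.76, 5.82 and 5.57). It was not called in the main fit (adjusted p = 0.0831) and was called without that library (adjusted p = 2.37e-05). With limma voom and with no filter on low counts all 15 members of the list were called higher, Slc2a5 included.

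Activation genes reached high levels. Apoe, the lipid carrier, stood at 12015, 6354 and 13889 CPM against 1030.0, 830.1 and 845 (log2 fold change 3.58), and Ctsd, a lysosomal protease, at 6916, 4135 and 5210.0 against 194, 174 and 163 (4.94). Cd68, a lysosomal protein of phagocytes, rose from 11.8, 10.7 and 13.8 to 339, 245 and 449 CPM (4.83, SE 0.50). Several of the 10 largest rises named by rule were of genes scarce in sham. Cst7, an inhibitor of cathepsins, had 3 counts over the 3 sham libraries and 4997 over the 3d SN-011 libraries, a ratio of 1414 with a 95% exact binomial interval of 484 to 6858. The interval covers counting error only. Replicate 3 held far less of it than the others (121, 111 and 20.8 CPM), and the sham counts were all in sham replicate 2, so that no ratio can be given without that library. Gpnmb, a membrane glycoprotein of lipid-laden phagocytes, ran the other way at 553, 97.6 and 1226 CPM against 1.21, 1.52 and 0.786, with a fold change of 9.05 that was 8.10 without replicate 3. Spp1, the secreted protein osteopontin, showed the same order of libraries at 699, 149.7 and 2462 CPM against 3.15, 4.06 and 3.45 (8.28, and 6.89 without replicate 3). Lgals3, a galectin of the same cells, rose by 6.96 (6.27 without replicate 3).

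Of 19 genes of monocytes and border macrophages 16 were tested, of which 14 rose and 1 fell. Their median was 4.01 (3.92 with the 2 members at 0 in sham set to their bound). Lyz2, the lysozyme of myeloid cells, stood at 1052, 333 and 808 CPM against 9.89, 5.33 and 6.41 (log2 fold change 6.66, SE 0.59, adjusted p = 1.03e-05). Cd5l, a protein secreted by macrophages, had 2 counts over the sham libraries and 2810 over the 3d SN-011 libraries, a ratio of 1193 with a 95% exact binomial interval of 330.0 to 9852. The sham counts were all in sham replicate 2. Arg1, the arginase of repair-type macrophages, had no count in sham and stood at 0.102, 0.198 and 7.33 CPM, so that replicate 3 alone carried it: taking 3 counts over the sham group as the floor, it was at least 42-fold higher, and at least 2.48-fold without replicate 3, where it was not called. The member called lower was Cd163, a haemoglobin scavenger receptor of border macrophages, at 0.87, 2.62 and 5.01 CPM against 14.5, 14.4 and 12.3 (-2.28, adjusted p = 0.000684, and -2.97 without replicate 3). Msr1, a scavenger receptor, rose by 7.18 (6.40 without replicate 3). Ccr2, the chemokine receptor of circulating monocytes, rose from 0.607, 0.667 and 0.605 to 5.78, 3.81 and 0.916 CPM (log2 fold change 2.47, adjusted p = 0.00772). Ly6c2, a surface protein of the same cells, rose from 0.243, 0.303 and 0 to 3.79, 3.11 and 0.485 CPM (3.71, adjusted p = 0.00948). Cd163, Ccr2 and Ly6c2 were singled out after their values were seen. Summed over the list, the 3d SN-011 libraries stood at 1203, 401 and 1017 CPM and the sham libraries at 33.7, 28.6 and 25.

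Neutrophil and lymphocyte genes were scarce. Of 10 neutrophil genes 3 had enough counts to be tested and 1 was called, Csf3r, at 231, 194 and 77.8 CPM against 12.9, 11.8 and 11.7 (log2 fold change 3.78). Csf3r is a growth factor receptor that microglia also carry. The members that failed the filter on low counts were chosen after their values were seen and did not all behave alike. Ly6g, which defines neutrophils, stood at 0, 0.0989 and 0 CPM in the 3d SN-011 libraries and at 0 in sham. Mmp8, the collagenase of neutrophil granules, had 151 counts in the 3d SN-011 libraries and 1 in sham, a ratio of 128 with a 95% exact binomial interval of 22.7 to 5095. The ratio pools the libraries of the arm. As Mmp8 failed the filter, it did not reach the filter's level in all 3 of them. The granule genes Retnlg and Camp had ratios of 12.7 (1.96 to 536) and 5.09 (1.13 to 46.9). All sham counts of each of these 3 genes lay in a single sham library. The 2 groups overlapped for Cxcr2, S100a8 and Ngp. Of 17 lymphocyte genes 8 had enough counts to be tested, of which 5 rose and 1 fell. The rises were 3 without 3d SN-011 replicate 1 or without sham replicate 2 or 3, and 1 in the 6 libraries fitted alone. Of the 8, all libraries of the arm lay above sham for 2 and below it for 1. Over all genes 63.3% did not overlap in either direction. Cd79b, of the B cell receptor complex, stood at 2.15, 2.27 and 2.59 CPM against 0.303, 0.606 and 0.363. Cd4, a T cell coreceptor that is also transcribed in brain tissue, was the member that fell, at 5.94, 16.9 and 20.1 CPM against 93.8, 82.4 and 89.7 (-2.63, adjusted p = 4.39e-05). Ighm, the immunoglobulin heavy chain, stood at 63.9, 62.7 and 5.33 CPM against 11.1, 33.5 and 15.9. It was not called in the main fit (adjusted p = 0.148) and was called without replicate 3 (adjusted p = 0.00167). Red blood cell genes were not called in either direction (0 and 0 of 5); the globin gene Hbb-bs stood at 40.5, 40.7 and 8.67 CPM against 46.5, 30.1 and 47.7, lowest in replicate 3.

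All 18 Fc receptor and phagocyte oxidase genes rose, with a median of 4.11. Fcer1g, the signalling chain shared by Fc receptors, stood at 197, 179.5 and 192 CPM against 7.4, 6.3 and 6.59 (log2 fold change 4.81, SE 0.42, adjusted p = 1.03e-05), and the 3 libraries of the arm lay close together. The receptor Fcgr3 rose by 4.14 (SE 0.43). Lysosomal and lipid handling genes rose in 21 of 23 cases and fell in 1, with a median of 2.57. The cathepsin Ctsh stood at 155, 94.3 and 176 CPM against 8.8, 8.97 and 8.41. Psap, the precursor of activators of lipid breakdown, rose by 1.06. The fatty acid receptor Cd36 stood at 12.6, 0.89 and 24.4 CPM against 0.728, 0.849 and 0.363: replicate 2 lay just above the sham range, and the fold change of 4.27 was 3.37 without replicate 3.

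Of the pathway that SN-011 targets, the sensor, the adaptor and the transcription factor were higher and the kinase was not called. Sting1, named Tmem173 in the annotation, stood at 31.9, 28.8 and 12.3 CPM in the 3d SN-011 libraries against 3.88, 4.18 and 4.11 in sham (log2 fold change 2.58, SE 0.40, adjusted p = 0.000153). Cgas, the DNA sensor before it, stood at 9.47, 8.7 and 6.25 CPM against 1.46, 2.00 and 0.726 (2.54, SE 0.37, adjusted p = 8.94e-05). Both genes were above sham in every library, Sting1 least in replicate 3. Irf3 rose by 0.93 (SE 0.18, adjusted p = 0.00067). Tbk1 was not called, at 39.2, 39.3 and 60.1 CPM against 54.4, 50.4 and 48.8 (adjusted p = 0.429); without replicate 3, the library where it was highest, it was called lower (-0.38, adjusted p = 0.00848). Ifnb1, the interferon that this pathway induces, had 0 counts in all 6 libraries, which allows up to 0.148 to 0.182 CPM by the 3-count floor. Of 23 genes of nucleic acid sensing and interferon signalling 21 rose and 0 fell, with a median of 2.10. Ifi204, another cytosolic DNA sensor, rose from 0.485, 0.242 and 0.544 to 32.1, 49.5 and 33.6 CPM (log2 fold change 6.48). Stat2, which carries the interferon signal, rose by 1.59, the receptor Ifnar1 by 0.45, and the kinase Jak1 was not called (-0.092, adjusted p = 0.538). These are transcript levels and carry no measure of STING activity.

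All 39 interferon-stimulated genes tested rose, with a median of 3.72. No occlusion library without the drug carries the 3d prefix, so no level without the drug can be set beside it. Ifitm3, a membrane protein that blocks virus entry, stood at 83.3, 132 and 83.9 CPM against 8.49, 8.36 and 5.75 (log2 fold change 3.73, SE 0.37, adjusted p = 1.22e-05). Bst2, the tetherin that holds virus particles at the cell surface, stood at 78.4, 90.0 and 49.3 CPM against 5.22, 4.36 and 2.9 (4.12, SE 0.49). Lgals3bp, a secreted glycoprotein, was the most abundant of the list at 367, 523 and 286 CPM against 30.2, 23.7 and 11.7. Oas3, which makes the signal for RNA cleavage, had no count in sham and was at least 97.5-fold higher at 6.5, 7.02 and 4.2 CPM, against the floor of 3 counts over the group. By list median replicate 2 was the highest library and replicate 3 the lowest, with 3.48, 4.04 and 2.58 for replicates 1 to 3 against the sham mean. Ifit3b, a protein that binds foreign RNA, had this order at 30.9, 51.1 and 9.59 CPM, and its fold change of 3.74 was 3.14 without replicate 2 and its reads may be shared with its near copy Ifit3. Without a stated strand setting, reads of genes that overlap on opposite strands cannot be told apart either.

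Promoters of some of these genes are shown because interferon-activated STAT and IRF factors are known to bind a common element in such promoters. The core of the interferon-stimulated response element, GAAANNGAA, was searched on both strands, overlapping matches included, in the 250 bases before and 50 bases after the start of each gene in the RefSeq promoter table. It was present in 17 of the 29 interferon-stimulated genes with a promoter entry (58.6%), and in 14 of them (48.3%) when only the bases before the start were read. Over all 12786 tested genes with an entry the share was 8.81%, over genes called higher 10.4% and over genes called lower 8.34%. Stretches of 4 promoters of genes called higher follow, read 5′ to 3′ on the strand of the gene, with the matches in capitals. A run longer than 9 capitals holds 2 overlapping matches. The 4 were taken by smallest adjusted p from the interferon-stimulated genes whose promoter holds the element before the start. A match was thus required for a promoter to be shown. Bst2 is on chr8:71537548-71537642 and Cxcl10 on chr5:92349054-92349139, both on the minus strand of GRCm38.p6, Oas1a on chr5:120907526-120907585 on the minus strand, and Trim25 on chr11:88999354-88999402 on the plus strand.
Bst2: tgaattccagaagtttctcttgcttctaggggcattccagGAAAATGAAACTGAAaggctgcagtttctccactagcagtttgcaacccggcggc
Cxcl10: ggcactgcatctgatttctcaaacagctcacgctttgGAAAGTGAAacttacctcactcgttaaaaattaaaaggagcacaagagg
Oas1a: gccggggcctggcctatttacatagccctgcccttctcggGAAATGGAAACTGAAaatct
Trim25: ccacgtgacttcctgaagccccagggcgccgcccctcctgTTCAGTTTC
Cxcl10, a chemokine that draws T cells, stood at 41.9, 28.2 and 11.5 CPM against 0.243, 0.303 and 0.121, and Oas1a, of the same family as Oas3, at 21, 30.0 and 9.91 against 0.243, 0.727 and 0.665. Trim25, a ubiquitin ligase of RNA sensing, stood at 70.7, 63.7 and 51.4 CPM against 12.4, 13 and 10.9; its match is on the opposite strand of the gene and ends at its start. These 3 genes were taken for their promoters and are outside the naming rule. A match is a description of the letters and not evidence of a bound factor. The cell cycle homology region, TTTGAA, was present in 11 of 25 promoters of cell cycle genes (44%) and in 14.7% of all promoters, and in the bases before the start alone these shares were 28% and 13.2%. In the other lists searched it ran from 7.69% (immediate early) to 24.1% (projection neuron). Before the start it ran from 7.69% (immediate early) to 21.1% (activated microglia). The cyclic AMP response element, TGACGTCA, was in 2 of 13 immediate early gene promoters (15.4%) and 3.28% of all, and the STAT dimer site, TTCCNGGAA, in 2 of 21 reactive astrocyte promoters (9.52%) and 1.48% of all. In the bases before the start the STAT site was in 1 of 21 reactive astrocyte promoters (4.76%) and 1.21% of all. It was also in 2 of 29 interferon-stimulated promoters (6.9%) in both windows, and in no promoter of the other lists searched. The interferon element was not limited to the interferon list: it was in 4 of 13 immediate early gene promoters (30.8%).

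Interferon-inducible GTPases, which attack vacuoles that hold pathogens, rose in 12 of 14 cases (median 2.42). Irgm1 stood at 61.8, 103 and 38.8 CPM against 6.79, 6.00 and 7.32 (log2 fold change 3.34, SE 0.51), and Gbp2 at 47.6, 60.4 and 18.7 against 4.79, 4.97 and 4.6 (3.14, SE 0.55). Gbp3 rose by 3.01 (2.23 without replicate 2, its highest library). These genes have close copies, so their reads may be split between members. Of 21 antigen presentation genes 20 rose, with a median of 3.26. B2m, the shared light chain of MHC class I, stood at 806, 1018 and 486 CPM against 80.9, 73.8 and 60.7 (3.42), and Psmb8, a subunit of the immunoproteasome, at 42.2, 26 and 23.2 against 1.46, 2.12 and 1.27 (4.23, SE 0.46). Tapbp, which loads peptides onto MHC class I, rose by 2.31 (SE 0.24). MHC class II differed more among the libraries: H2-Aa stood at 25.8, 11 and 2.1 CPM against 1.21, 1.27 and 0.786, with a fold change of 3.56 that was 2.58 without replicate 1.

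Complement genes rose in 13 of 16 cases and fell in 1, with a median of 3.13. C1qa, a chain of the initiator C1q that microglia make, stood at 1322, 865 and 1163 CPM against 36.9, 28.9 and 31.6 (log2 fold change 5.10, SE 0.57), and C1qb rose by 4.90 (SE 0.54). C3, the central component, stood at 88.3, 67.8 and 38.4 CPM against 1.09, 2.18 and 2.54 (5.06, SE 0.41, adjusted p = 9.79e-06). The inhibitor of C1, Serping1, rose as well, from 4.49, 5.15 and 4.05 to 54.7, 64.5 and 63.6 CPM. The receptor C5ar1 rose by 4.57 (SE 0.51). The member called lower was Cd59a, which protects cells from the membrane attack complex and was named after its values were seen, with 9.78, 11.2 and 9.75 CPM against 25.9, 22.2 and 8.41. That call (log2 fold change -0.88, adjusted p = 0.0363) was lost when any 1 library other than sham replicate 3 was left out (adjusted p from 0.0549 to 0.173).

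Of 19 chemokine genes 15 were tested, of which 12 rose and 2 fell, and the 2 that fell had the highest CPM of the list in sham. Cx3cl1, the chemokine on the surface of neurons, stood at 113, 212 and 249 CPM against 1029, 1052 and 1027 (log2 fold change -2.44, SE 0.26, adjusted p = 1.60e-05). Its receptor Cx3cr1 on microglia, chosen after its values were seen, moved the other way, from 80.6, 73.4 and 77.4 to 681, 561 and 312 CPM (2.75). Cxcl12 fell from 110.3, 103 and 115 to 72.3, 59.9 and 62.5 CPM while its receptor Cxcr4 rose from 1.88, 1.94 and 2.48 to 25.7, 18.4 and 32.3 (-0.75 and 3.60). Ccl4, a chemokine of activated microglia, had 1 count over the sham libraries and 546 over the 3d SN-011 libraries, a ratio of 463 with a 95% exact binomial interval of 82.8 to 18338. That count was in sham replicate 1. Cxcl9, induced by interferon gamma, stood at 5.99, 3.26 and 0.323 CPM against 0.0607, 0.182 and 0, nearly at the sham level in replicate 3; its fold change of 5.19 was 4.36 without 3d SN-011 replicate 1 and 6.41 without sham replicate 2.

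Of 27 inflammatory cytokines, receptors and signal carriers 25 rose (median 2.74). Tgfb1, a cytokine that restrains microglia and drives scarring, stood at 127, 74.1 and 115 CPM against 7.52, 7.76 and 6.84 (log2 fold change 3.84, SE 0.35, adjusted p = 1.08e-05), and its receptor Tgfbr2 rose by 2.91 (SE 0.37). Stat3, which reactive astrocytes need, rose from 66.3, 61.6 and 57.3 to 199, 169 and 236 CPM. Il1b, the interleukin released by inflammasomes, stayed scarce at 1.54, 1.38 and 0.269 CPM against 0.667, 0.121 and 0.242 and was not called (adjusted p = 0.0717); it was called without 3d SN-011 replicate 3 or without sham replicate 1 (2.06 and 2.50). Among genes of cell death 25 of 26 rose, with a median of 2.33. Bax, which opens the outer mitochondrial membrane, stood at 44.8, 39 and 42 CPM against 20.0, 18.7 and 18.2, and Ripk1, which can start necroptosis, at 27.3, 22.7 and 29.6 against 5.4, 4.97 and 6.29. The protective family member Mcl1 rose too, from 67, 60.4 and 67.7 to 215, 174 and 235 CPM. Ripk3 rose by 4.61 (5.20 without sham replicate 3).

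Reactive astrocyte genes rose in 23 of 25 cases, with a median of 4.03. Gfap, the intermediate filament that defines reactive astrocytes, stood at 6901, 8094 and 5055 CPM against 85.6, 104 and 133 (log2 fold change 5.96, SE 0.80, adjusted p = 5.45e-05). It lies on chromosome 11, 102887336 to 102900912 of GRCm38. Vim, its partner filament, stood at 2243, 3425 and 1905 CPM against 36.2, 47.2 and 40.5 (5.93, SE 0.66). The lipid receptor S1pr3 stood at 134, 101 and 75.9 CPM against 6.55, 9.27 and 7.38 (3.74, adjusted p = 9.79e-06), and the cytokine Clcf1 at 28.5, 24.9 and 31.8 against 1.76, 1.39 and 1.69. Fkbp5, a gene induced by glucocorticoids, stood apart: it was at 58.1, 43.4 and 245 CPM against 44.4, 44.5 and 43.4, so that only replicate 3 was far from sham. It was called with all libraries (adjusted p = 0.0227) but not without replicate 3 (log2 fold change 0.20), without any 1 sham library (adjusted p = 0.0588, 0.0603 and 0.0614) or in the 6 libraries fitted alone.

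Genes of resting astrocytes also rose, in 16 of 20 cases, with a median of 0.97. Slc1a3 and Slc1a2 are the 2 transporters by which astrocytes clear glutamate. Slc1a3 rose from 504, 514 and 530.2 to 1131, 1396 and 1230.0 CPM (log2 fold change 1.28, adjusted p = 3.32e-05), and Slc1a2 was not called, at 2858, 3515 and 2990.0 CPM against 3617, 3531 and 3352 (adjusted p = 0.365). Aqp4, the water channel of astrocyte endfeet, stood at 587, 870.1 and 285 CPM against 109, 114 and 113, all libraries above sham and replicate 3 least. Mlc1, a membrane protein of the same endfeet, rose by 1.96 (SE 0.23). None of this list was called lower, but 3 were without 3d SN-011 replicate 2. Among genes of the ventricle lining, Foxj1, the factor for motile cilia, stood at 104, 63.1 and 76.8 CPM against 16.9, 20.6 and 19.2, and Rarres2, a secreted protein, at 23.9, 23.5 and 17.1 against 5.22, 6.85 and 6.35. In the joint choroid plexus and ependyma list 5 of 16 rose and 4 fell, shares near the 29.8% and 27.9% of all genes. The members that fell were Folr1, Clic6, Slc4a5 and Prlr, all of choroid plexus and named after their values were seen, 4 in number. That last count was 0 without 3d SN-011 replicate 1 or 3 or without sham replicate 1, 8 without 3d SN-011 replicate 2 and 7 without sham replicate 3.

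Genes of the oligodendrocyte line were higher or not called. All 13 precursor genes rose (median 0.95), and 10 of 20 myelin genes rose (median 0.48) with 0 lower. Matn4, a matrix protein of precursors, stood at 41.4, 39.5 and 40.9 CPM against 11.9, 10.6 and 12 (log2 fold change 1.82, SE 0.17, adjusted p = 1.10e-05), and Bmp4, a growth factor that cells leaving the precursor state make, at 11.6, 11.7 and 9.8 against 3.34, 2.3 and 3.27. Mbp, the myelin basic protein, stood at 12764, 6051 and 8787 CPM against 3820.0, 4044 and 4659 (1.14), and Cldn11, of the tight junctions in myelin, at 738, 718 and 762 against 282, 285 and 341 (1.29). Ugt8a, which makes the galactolipids of myelin, stood at 158, 168 and 35.7 CPM against 117, 129.9 and 159: replicates 1 and 2 lay at or above the sham range and replicate 3 far below it. Gpr17, a receptor of differentiating precursors, was called higher at 196, 137 and 56.6 CPM against 69.8, 66 and 71.7 (adjusted p = 0.0286), a call that was lost without 3d SN-011 replicate 1 (log2 fold change 0.49, from 0.91) or 2 (adjusted p = 0.0637), without any 1 sham library (adjusted p = 0.0683, 0.0805 and 0.063) and in the 6 libraries fitted alone.

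Genes of the vessel wall were more often called higher than lower. Of 24 endothelial genes 12 rose and 2 fell (median 0.73), and of 13 mural cell genes 6 rose and 1 fell (median 0.51). Over all genes 29.8% were called higher and 27.9% lower. In both lists rises were thus more frequent and falls rarer than among genes at large. Slc7a5, the transporter of large amino acids at the blood-brain barrier, stood at 123, 115 and 124 CPM against 59.7, 64.4 and 57.1 (log2 fold change 0.99, SE 0.12), and Slc2a1, its glucose transporter, at 207, 137 and 395 against 94.3, 91.7 and 92. Angpt2, a factor that loosens vessels, stood at 5.63, 1.83 and 26 CPM against 1.27, 1.33 and 1.45, highest in replicate 3, and its fold change of 3.03 was 1.45 without that library. The pericyte gene Rgs5 was not called (124, 116 and 116 CPM against 127, 129.9 and 138, adjusted p = 0.263), whereas Kcnj8, a potassium channel of the same cells, rose by 1.31. The members that fell were Flt1 and Kdr, both receptors of vascular growth factor on endothelium, at 107, 94.7 and 78.9 CPM against 123, 118 and 113 and 26.4, 17.4 and 20.5 against 38.6, 33 and 28.3, and Myh11, the myosin of smooth muscle, at 4.96, 3.36 and 5.44 against 10.5, 10.4 and 9.56 (log2 fold changes -0.34, -0.64 and -1.15, genes named after their values were seen). Of the 2 endothelial falls none was called without 3d SN-011 replicate 2 or without sham replicate 1, and 1 was called without 3d SN-011 replicate 3 or sham replicate 2 or 3.

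Matrix and protease genes rose in 20 of 26 cases, with a median of 2.05, and split the 3 libraries of the arm. Col3a1, a fibrillar collagen, stood at 106, 3.61 and 203 CPM against 4.67, 3.33 and 4.17: replicates 1 and 3 were far above sham, and replicate 2 lay within its range. Its fold change of 4.68 was 3.75 without replicate 3. The list medians of the 3 libraries against the sham mean were 2.27, 0.71 and 2.55. Sparc, a matrix protein that glia also make, did not share this split, at 1312, 1161 and 1169 CPM against 212, 165 and 216 (log2 fold change 2.62, SE 0.29), and neither did Mmp2, a gelatinase, at 35.3, 25.2 and 35 against 4.31, 2.85 and 4.11 (3.08, SE 0.33). No member was called lower with all libraries, and 3 were without replicate 3.

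**Figure D3:**
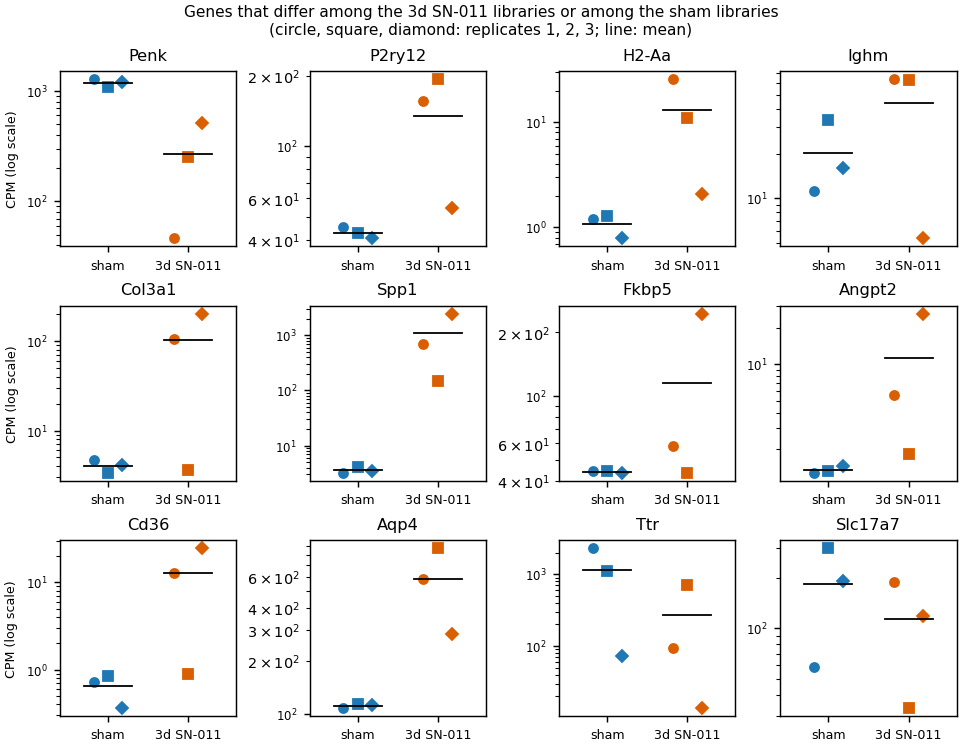
CPM (log axis) of 12 genes in the 3 sham libraries (blue) and the 3 libraries of the 3d SN-011 arm (orange), with the group mean as a line. Col3a1, Spp1 and Cd36 are lowest in 3d SN-011 replicate 2 (square), P2ry12, H2-Aa and Ighm lowest and Fkbp5 highest in replicate 3 (diamond), Penk lowest in replicate 1 (circle), and Ttr and Slc17a7 vary within sham as well.

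The libraries of the arm thus did not differ along a single order. Projection neuron genes were lowest in replicate 1, matrix genes were nearest to sham in replicate 2, and interferon-stimulated, resting microglia and lymphocyte genes were nearest to sham in replicate 3. The list medians against the sham mean were 2.97, 2.66 and 1.94 for resting microglia genes, 1.96, 1.80 and 0.20 for lymphocyte genes, 4.71, 4.02 and 4.09 for activated microglia genes and 3.37, 3.44 and 3.65 for reactive astrocyte genes. Of these 4 lists the last 2 had the smallest range over the 3 libraries. The labels do not say whether these libraries differ in time, lesion or dissection, and the part of such differences in the order was not tested.

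**Figure D4:**
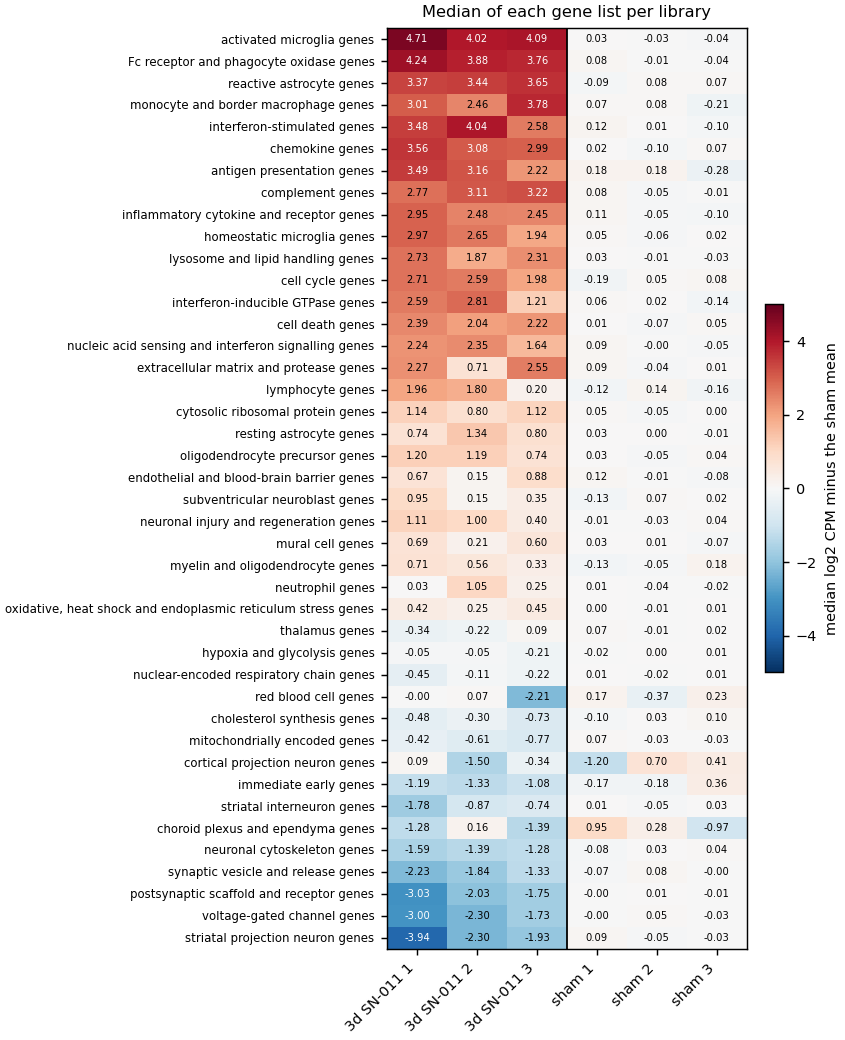
Median log2 CPM (prior count 2) of each of 42 gene lists in each of the 6 libraries, as the difference from the mean of the sham libraries, from blue (below) to red (above), with lists in the order of their fitted median log2 fold change. The neuron lists at the bottom are lowest in 3d SN-011 replicate 1, the matrix list is palest in replicate 2, and the interferon and lymphocyte lists are palest in replicate 3.

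Cell division genes rose in 29 of 30 cases, with a median of 2.51. Pcna, the clamp of replicating DNA, stood at 86.1, 78.3 and 75.4 CPM against 32, 34.1 and 32.5 (log2 fold change 1.28, SE 0.11, adjusted p = 9.97e-06), and Cdk1, the kinase that starts mitosis, at 25, 23.6 and 18.3 against 1.33, 1.09 and 1.27 (4.17, SE 0.39). Mki67, present in all cycling cells, rose from 11.2, 14 and 13.9 to 98, 78.7 and 69.8 CPM. Bulk counts do not say which cells carried these transcripts. Cytosolic ribosomal protein genes all rose, 23 of 23, with a median of 1.02 that was 0.74 with offsets for GC content and length. Rplp0 stood at 669, 505 and 582 CPM against 169.7, 169 and 175 and Rpl18 at 247, 176 and 222 against 72.9, 69.3 and 69.2. Their processed pseudogenes are many, so reads of these genes may be shared.

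Among the metabolic lists, cholesterol synthesis and respiratory chain genes had members called lower and none called higher. Of 17 cholesterol synthesis genes 8 fell and 0 rose (median -0.47). Srebf2, the factor that drives the pathway, stood at 175, 179 and 139 CPM against 283, 290.2 and 279 (log2 fold change -0.79, SE 0.12, adjusted p = 0.000134). Of 19 nuclear-encoded respiratory chain genes 8 fell (median -0.30), a count that was 16 with offsets for GC content and length, and Ndufs1 of complex I fell by 0.78. Of 13 mitochondrially encoded genes 7 fell (median -0.61). Leaving out sham replicate 1 gave 3 falls, and leaving out either sham replicate 3 or 3d SN-011 replicate 3 gave 4. With the offsets 4 fell and 1 rose. mt-Nd2 fell by 1.06 (SE 0.25) and mt-Co1 was not called (-0.28, adjusted p = 0.306).

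Hypoxia and glycolysis genes stood close to the genes at large, with 6 of 19 higher and 6 lower (10 lower with the offsets). Hk2, a hexokinase of activated glia, stood at 73.2, 51.2 and 36.4 CPM against 4.55, 4.18 and 4.66 (log2 fold change 3.58, SE 0.44), while Pfkp, the phosphofructokinase of neurons, fell from 290.1, 321 and 308 to 131, 181 and 123 CPM and Aldoa fell by 0.58. Of 21 stress genes 12 rose and 4 fell. Hmox1, which breaks down haem, stood at 47.6, 44.2 and 86.7 CPM against 3.15, 2.67 and 3.33 (4.28, SE 0.41), and the iron store Fth1 at 4126, 4043 and 4764 against 1647, 1706 and 1787. Gpx1, which removes peroxides, rose by 1.27 (SE 0.13), and Hsp90aa1, a chaperone abundant in neurons, fell by 0.82. Hspa1a, the inducible heat shock protein, stood at 10.9, 2.13 and 4.79 CPM against 1.76, 1.88 and 2.66 and was called with all libraries (adjusted p = 0.0276), but not without 3d SN-011 replicate 1 (0.72, from 1.50) or without sham replicate 1 or 2 (adjusted p = 0.0861 and 0.0827).

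**Figure D5:**
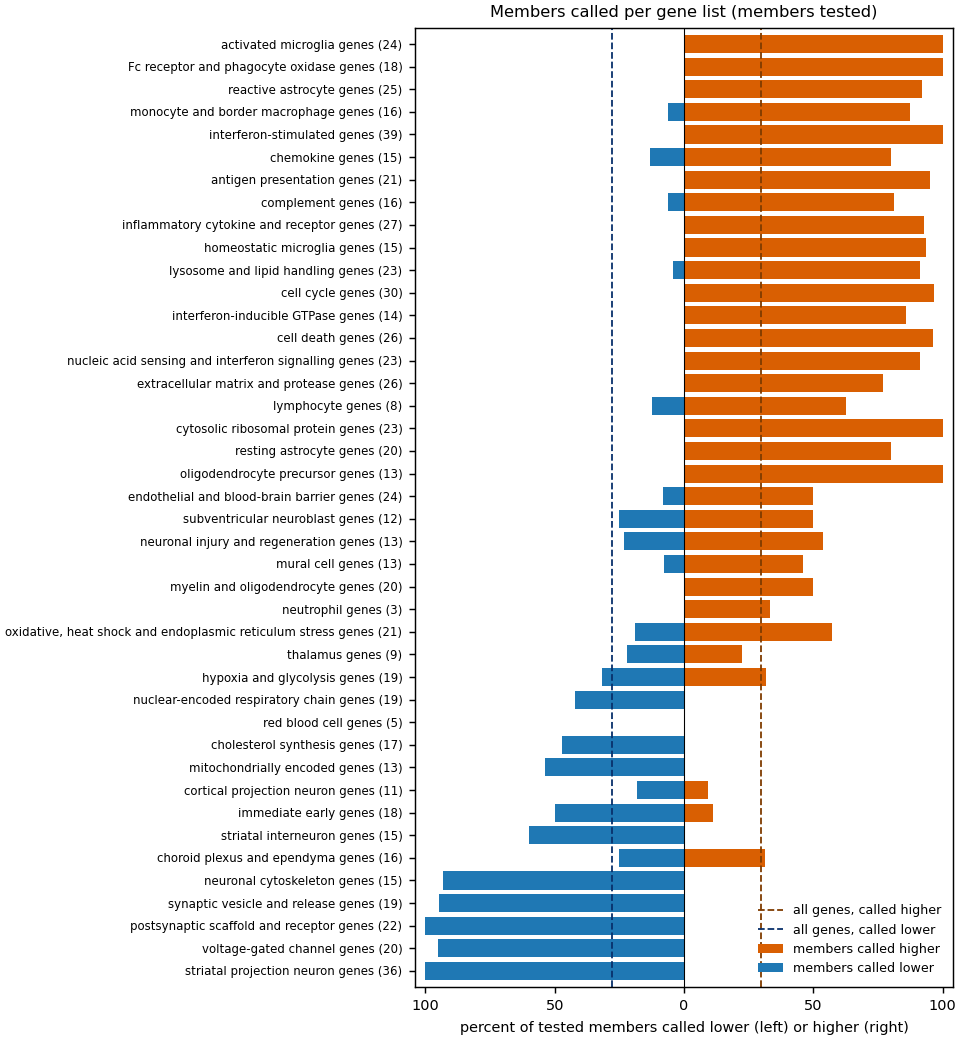
Percent of the tested members of each of 42 gene lists called lower (blue, to the left) or higher (orange, to the right), with the number tested in brackets and the shares over all genes, 27.9% lower and 29.8% higher, as dashed lines. Lists are ordered by median log2 fold change from the striatal projection neuron genes at the bottom to the activated microglia genes at the top.

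The series also holds 3 occlusion libraries with SN-011 whose titles lack the prefix and 3 occlusion libraries with PBS, called vehicle. Both arms were compared with the same sham libraries, so their values are not independent of these and are given side by side with no test. For striatal projection neuron genes the median log2 fold change over sham was -2.51 in the 3d SN-011 arm, -0.24 in the SN-011 arm without the prefix and 0.067 in the vehicle arm. The 3 values were 4.36, 2.09 and 0.18 for activated microglia genes, 3.72, 1.83 and 0.54 for interferon-stimulated genes and 2.05, 0.32 and 0.10 for matrix genes. The SN-011 arm without the prefix was spread widely, with list medians of 1.13, 0.73 and 3.07 for activated microglia genes in its 3 libraries. Cst7, at 121, 111 and 20.8 CPM in the 3d SN-011 libraries, stood at 1.96, 2.57 and 48.6 in that arm and 0.187, 0.716 and 1.61 in vehicle.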

How the data were processed

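Per the labels' protocols, Trizol was used on the striatum of C57BL/6J mice and polyA+ RNA was sequenced from both ends. The deposited tables hold read counts per Ensembl gene as whole numbers, and the authors made no normalization that the values show. HISAT2 and featureCounts on mm10 are listed in the submitters' processing notes, with no version, annotation release or strand setting. Groups were taken from the titles.

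The analysis used R 4.3.3 and edgeR 4.0.16. Genes passed filterByExpr (minimum count 10), scaling was by TMM, and a single quasi-likelihood model of all 12 libraries had group as its term, so that the groups share an estimate of the spread. The contrast of 3d SN-011 minus sham was tested by glmQLFTest with Benjamini-Hochberg adjustment over all genes tested. The script was tested on simulated data with far fewer changed genes than were called here. That test therefore does not cover a shift in composition as large as the one in these libraries. The SE is the log2 fold change over the square root of its F statistic. Gene positions (counted from 1) are those of GENCODE M21 on GRCm38. Promoters come from RefSeq on GRCm38.p6. Libraries of a group differed by more than counting error (chi-square per degree of freedom at least 4.79). Each was counted as 1 replicate, but this does not show that they came from separate animals. The lists held 816 members, of which 815 matched a gene. Intervals and floors cover counting error only.

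The libraries and the 42 gene lists were chosen with earlier results of these data known. The naming rule took the 10 largest rises and the 10 largest falls among called genes that averaged 1 CPM or more, did not overlap between groups and had a proper symbol (no Gm, Rik or pseudogene name). From each list it took the 2 members called at the smallest adjusted p-values, the 2 with the highest mean CPM and the member with the largest SD among the 3d SN-011 libraries. Sting1, Cgas, Tbk1, Irf3, Ifnb1, Gfap, Drd1 and Drd2 were always named. Some genes that the rule takes are counted but not reported by name here. Alternatives were RLE scaling, DESeq2 1.42.0, limma 3.58.1 voom with sample quality weights, no filter on low counts, a fit of the 6 libraries alone, a replicate block, offsets for GC content and gene length, a test against an absolute log2 fold change of 1, promoter windows cut at the gene start, and leaving out each library. Plots were made in Python 3.11.15 with matplotlib 3.10.9.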

Additional observations from a re-analysis of the deposited data

How the results depend on the processing

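RLE scaling, DESeq2, voom, no filter, the 6 libraries fitted alone and the leave-out fits each gave counts within 1.5 times the main counts: genes called higher ranged from 4758 to 5680 and genes called lower from 4484 to 5438. Against an absolute log2 fold change of 1, edgeR's glmTreat called 2085 higher and 1444 lower. With a replicate block 5269 were higher and 5055 lower. Same-numbered 3d SN-011 and sham libraries did not deviate together (correlations -0.055, -0.030 and 0.006), so the numbers were not taken as pairs. Offsets for GC content and length called 5102 higher and 5911 lower, so that 46.3% of calls were higher against 51.6% in the main fit, and shifted the median of all genes to -0.080.

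With those offsets list medians moved to -1.34 for neuronal cytoskeleton, 3.79 for Fc receptor and oxidase, 2.89 for complement, 3.64 for reactive astrocyte (also 3.77 with voom and 3.78 with the replicate block), -0.52 for nuclear respiratory, -0.42 for mitochondrially encoded, -0.29 for hypoxia and 0.74 for ribosomal genes. Voom gave -1.29 for immediate early, 3.18 for monocyte and -0.26 for thalamus genes, and the 6 libraries alone 1.84 for neutrophil genes. When each library was left out, medians ranged from -1.31 to -0.74 for immediate early, -0.0083 to 1.14 for neutrophil, 3.66 to 4.03 for reactive astrocyte, 0.91 to 1.24 for precursor, -0.13 to 0.074 for hypoxia and -0.35 to 0.34 for thalamus genes. The other list medians moved by less than the spread between replicates. Genes that were not called changed sign: Tubb4a (-0.065) and Slc1a2 (0.20) with the offsets, Dcx with voom (-0.014), and Sst (-0.47 to 0.019), Dcx (-0.34 to 0.21) and Ugt8a (-0.48 to 0.27) over the leave-out fits. The causes were not tested, and no called gene named here changed sign. Of 155 called genes named, 12 lost their call in some setting. The depth limits scarce genes: 3 counts came to 0.148 to 0.182 CPM per library.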

Other observations

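Among the genes with the largest rises 4 more had no count in sham, and their libraries differed. Sucnr1, the receptor by which macrophages sense succinate, stood at 2.71, 10.9 and 0.862 CPM in the 3d SN-011 libraries and was at least 79.8-fold higher, against 3 counts over the sham group as the floor (29.5 without replicate 2). Hmga2, a chromatin protein of fetal and dividing cells, stood at 2.51, 2.22 and 4.2 CPM, at least 49.2-fold higher. Atp6v0d2, a proton pump subunit of osteoclasts and macrophages, stood at 5.73, 0.692 and 2.37 CPM, at least 48.4-fold higher (25.3 without replicate 1). Apoc4, an apolipoprotein beside Apoe, stood at 1.38, 0.593 and 4.85 CPM, at least 37.5-fold higher (16.3 without replicate 3). Among the largest falls, the growth factor Fgf3 stood at 0.205, 1.24 and 0.377 CPM against 10.6, 8.73 and 7.38 (log2 fold change -3.85, and -4.91 without 3d SN-011 replicate 2). Sec14l3, a lipid-binding protein, stood at 0.256, 0.395 and 0.0539 CPM against 4.13, 2.42 and 3.33 (-3.75, SE 0.60).

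The gene classes of the annotation are given side by side. Of 15110 protein-coding genes tested 5026 were called higher and 4284 lower, with a median log2 fold change of 0.061. Of 734 long intergenic non-coding RNA genes 128 were higher and 231 lower (median -0.39), and of 717 antisense genes 80 were higher and 200 lower (median -0.40). Without a known strand setting, reads of an antisense gene and its partner cannot be told apart. No test of the difference between classes was made.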
